A study of Mus musculus with 18 samples.

Results

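The subject is the mouse duodenum as it matured between E14.5 and E16.5 (E for embryonic day). It was chosen by the tissue and age given in the sample labels, which covers 6 of the 18 arrays of the series, 3 at each age. The first pair of arrays at E14.5 was averaged into 1 sample for the reason given below, so 5 of 17 samples were compared, 2 at E14.5 and 3 at E16.5. The series also holds 6 arrays of pylorus and 6 of the adjoining stomach at the same ages. All tissue came from C57Bl/6J embryos of timed pregnancies, with day 0.5 set at the finding of the plug, and no sample carried a mutation or was treated. Stomach, pylorus and duodenum were taken as contiguous segments from 174 embryos of the earlier age and 95 of the later. Each segment was pooled at random into 3 samples per age. Each sample is therefore a mix of many embryos, and the p-values rest on how much pools varied, not on how much embryos varied. Total RNA was converted to biotinylated cRNA from 6 ug of RNA and hybridized to Affymetrix arrays.

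In these days of gestation the simple tube of the proximal gut becomes an organ with villi. The epithelium, which is of endodermal origin, sends Hedgehog and PDGF signals to the mesenchyme beneath it, and mesenchymal clusters answer with BMP and other signals that shape the villi, while dividing cells become confined to the regions between them. Villus enterocytes then start to make the apolipoproteins, hydrolases and transporters with which the newborn absorbs milk. Smooth muscle, interstitial cells of Cajal and the enteric nervous system are laid down in the outer wall in the same period.

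Values are deposited log2 expression values, and a difference is E16.5 minus E14.5 on the log2 scale with its standard error (SE) from limma. A gene was called, and is said to have risen or fallen, where its Benjamini-Hochberg adjusted p over 18193 genes was below 0.05. The spread of each gene was estimated over all 6 groups of the series, so samples of stomach and pylorus also bear on the p-values. The first pair of duodenal arrays at E14.5 differed with an SD of 0.08 over probe sets brighter than log2 8, while the other 17 replicate pairs of the series gave 0.166 to 0.486. For that reason their mean served as 1 sample, called sample 1, and the other E14.5 sample is replicate 3. At E16.5, replicate 1 stood apart from replicates 2 and 3, with SDs of 0.486 and 0.447 against 0.249 between the latter pair. It had the highest mean level of 19 immediate-early and heat-shock genes, 11.23 against 9.23 and 9.39 in replicates 2 and 3 and 8.75 and 8.86 at E14.5. The part of these genes' level in other differences was not tested. Each count below of a whole gene list is also given without a sample where leaving it out moved a count above 3 by more than 1.5 times. Counts for parts of a list, for dim genes and for changes above a given fold were not recomputed with a sample left out.

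The labelled tissue was set against its neighbours with a marker each of intestine, stomach mesenchyme and pyloric mesenchyme. The mean level of Cdx2, the caudal homeobox factor that specifies intestine, was 9.97 in duodenum and 6.09 in stomach at E14.5, and 10.79 and 6.95 at E16.5. Barx1, a homeobox gene of stomach mesenchyme, had means of 8.48 in duodenum and 12.47 in stomach at the earlier age, and of 6.98 and 11.40 at the later. Nkx2-5, which marks the mesenchyme of the pyloric sphincter, averaged 7.20 in duodenum and 9.89 in pylorus at E14.5, then 7.08 and 8.55. At both ages the duodenal mean was thus above that of stomach for Cdx2, below that of stomach for Barx1 and below that of pylorus for Nkx2-5.

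Duodenal RNA changed widely in these 2 days. Of 18193 genes, 11171 were called (61.4%), with 5692 higher (31.3%) and 5479 lower (30.1%) at E16.5. These shares are the background for every count of called list members below. The 5 samples did not overlap between the ages for 13764 genes (75.7%). A change of at least 2-fold was called for 1756 genes that rose and 2414 that fell, whereas a change of at least 16-fold was called for 144 genes that rose and 4 that fell. The large changes were therefore mostly rises. Each sample was labelled from 6 ug of RNA, so a gene's value also depends on the RNA of the other cells. In bulk tissue, fewer cells of a type, less RNA per cell and a smaller share of a growing tissue cannot be told apart. This holds for each result below. Among dim genes, with means below 7 at both ages, 2233 were called higher and 386 lower, and the lower quartile of the duodenal arrays lay at 5.10 to 5.14 at E14.5 and 5.27 to 5.30 at E16.5. The part of that shift in small rises of dim genes was not tested. With dim genes left out, 38.5% of the calls were higher instead of 51%.

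Among the largest rises were those of Meltf, Leap2 and Fbp1. Meltf, which encodes the iron-binding surface protein melanotransferrin, measured 6.00 in sample 1 and 5.76 in replicate 3 at E14.5 and 13.31, 13.82 and 14.16 in replicates 1 to 3 at E16.5. It rose by 7.88 ± 0.49 (adjusted p = 2.31e-08). Its E14.5 values lay below the array medians of 6.75 to 6.92. No detection calls were used here, so the size of a rise from such dim values is a difference of deposited values and gives no exact fold change. Leap2, a secreted antimicrobial peptide that also antagonizes the ghrelin receptor, went from 5.57 and 5.22 to 12.22, 13.18 and 13.36, a rise of 7.52 ± 0.31. Fbp1, a fructose bisphosphatase of gluconeogenesis, rose by 6.95 ± 0.40, from 6.04 and 5.70 to 11.79, 13.17 and 13.49. In all of these genes the ages were separated by more than 5 log2 units. Other rises of this size were those of Clca4b (6.86 ± 0.47), of the chloride channel regulator family, of Hyal5 (6.85 ± 0.42), a hyaluronidase known from sperm, of Abcb11 (6.55 ± 0.34), the bile salt export pump, and of Gda (6.47 ± 0.89), a guanine deaminase.

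The largest falls were those of embryonic globins. Hbb-y measured 14.48 and 14.60 at E14.5 and 8.65, 6.13 and 7.05 at E16.5, a difference of -7.27 ± 0.77 (adjusted p = 1.5e-06). Hba-x fell by 6.09 ± 0.37 and Hbb-bh1 by 4.74 ± 0.46. These globin genes are known from primitive red cells of the yolk sac, and the blood content of the tissue was not measured. After the globins came Cldn6 (-4.25 ± 0.39), a claudin of embryonic epithelia, Zfhx4 (-3.75 ± 0.33), a zinc finger homeobox gene, Gdf10 (-3.59 ± 0.32), of the TGF-beta family, Nefm (-3.55 ± 0.23), the medium neurofilament chain of neurons, and Slc2a3 (-3.54 ± 0.20), a glucose transporter. Cldn6 went from 10.62 and 10.87 to 6.50, 6.33 and 6.67, with no overlap. Fndc3c1 (-3.50 ± 0.33), the amino acid transporter gene Slc6a15 (-3.48 ± 0.22), the kinase gene Sbk1 (-3.39 ± 0.33) and the transcription factor gene Osr1 (-3.36 ± 0.38) completed the 12 largest falls.

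**Figure D1:**
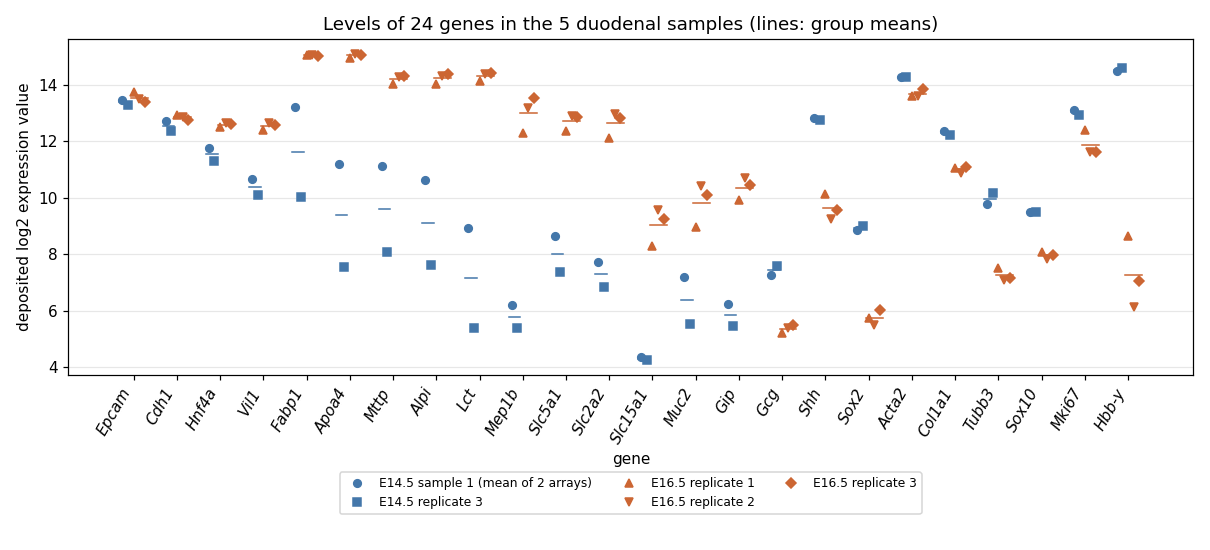
Deposited log2 expression values (y axis) of 24 genes (x axis) in the 5 duodenal samples; blue symbols are E14.5, orange symbols E16.5, and lines are group means. Absorptive genes such as Lct (5.38 and 8.93 at E14.5, 14.13 to 14.41 at E16.5) lay far apart between the ages, the general epithelial gene Epcam overlapped, and Shh, Sox2 and neuronal genes were lower at E16.5.

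Genes of lipid absorption and lipoprotein assembly rose almost as a whole: 22 of 23 measured members were called higher and none lower, with a median difference of 3.58 (all genes, 0.09). Among the lipid-binding genes, Fabp1, the liver-type fatty acid binding protein, measured 13.21 and 10.04 at E14.5 and 15.06, 15.05 and 15.04 at E16.5. It rose by 3.43 (adjusted p = 0.00814). Apoa4, an apolipoprotein of chylomicrons made by enterocytes, went from 11.20 and 7.55 to 14.97, 15.09 and 15.07, a rise of 5.67 ± 1.07. Both genes were near the highest value of the table (15.22) at E16.5. The E14.5 samples lay far apart from each other in these genes, and sample 1 was the higher: the mean level of the list was 9.79 in sample 1 and 8.70 in replicate 3, against 12.48, 12.83 and 13.04 at E16.5. Without replicate 3 the rise of Fabp1 was 1.85 and was not called (adjusted p = 0.18), while without sample 1 it was 5.01. For Apoa4 the corresponding values were 3.84 and 7.49, both called.

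The other steps of lipid handling rose in the same way. Of the uptake genes, Npc1l1, the brush border sterol transporter, rose by 5.76 ± 0.64, and Cd36, a fatty acid receptor, by 4.17. Of the esterification genes, Dgat2, a diacylglycerol acyltransferase, rose by 3.96 ± 0.31, from 9.54 and 8.98 to 12.94, 13.32 and 13.42. Among lipoprotein genes, Mttp, which loads lipid onto apolipoprotein B, rose by 4.60 ± 0.94 from 11.14 and 8.07 to 14.02, 14.29 and 14.30, and by 3.06 without replicate 3 of E14.5. Apob itself, the scaffold of the chylomicron, rose by 3.74 ± 0.57, Apoc3 by 6.28 ± 1.13 and Apoc2, the activator of lipoprotein lipase, by 6.63 ± 0.60. Apoa2 was the 1 member not called, with a difference of 0.17. The sterol export half-transporters Abcg5 and Abcg8 rose by 4.65 ± 0.46 and 1.93 ± 0.35.

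Promoters of some risers are shown with letters tied to nuclear receptors of the HNF4 family and to GATA factors, known regulators of enterocyte genes. Hnf4a, Hnf4g, Gata4, Gata5 and Gata6 were called higher in these samples, and their part in the other rises was not tested. Each promoter shown holds a match, so those shown do not stand for the risers as a whole. The sequences are the 250 bases before the annotated start, read 5′ to 3′ on the gene's strand, from RefSeq on assembly GRCm38.p6. Capitals mark every match of either strand to the letters CAAAGNNCA, named HNF4-type here, or AGATAA, a core that is read by the GATA family and is named GATA-type here. Alpi, the intestinal alkaline phosphatase, lies at chr1:87101607-87101856 on the minus strand, Apoa4 at chr9:46240594-46240843 on the plus strand, Lct, lactase, at chr1:128328319-128328568 on the minus strand, and Slc3a1, the heavy chain of the cystine transporter, at chr17:85028097-85028346 on the plus strand.
Alpi: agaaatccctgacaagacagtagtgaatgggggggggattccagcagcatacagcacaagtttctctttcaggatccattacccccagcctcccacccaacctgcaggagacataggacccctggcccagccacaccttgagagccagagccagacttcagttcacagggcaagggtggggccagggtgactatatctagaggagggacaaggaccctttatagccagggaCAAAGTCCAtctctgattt
Apoa4: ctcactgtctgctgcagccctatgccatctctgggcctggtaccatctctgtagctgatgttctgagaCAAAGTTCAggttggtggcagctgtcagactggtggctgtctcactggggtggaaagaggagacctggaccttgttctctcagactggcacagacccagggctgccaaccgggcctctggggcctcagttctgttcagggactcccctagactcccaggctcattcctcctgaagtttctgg
Lct: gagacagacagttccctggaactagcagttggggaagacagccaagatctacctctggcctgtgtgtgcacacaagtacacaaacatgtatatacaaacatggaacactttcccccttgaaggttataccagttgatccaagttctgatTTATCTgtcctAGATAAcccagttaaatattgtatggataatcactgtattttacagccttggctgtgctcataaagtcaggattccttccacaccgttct
Slc3a1: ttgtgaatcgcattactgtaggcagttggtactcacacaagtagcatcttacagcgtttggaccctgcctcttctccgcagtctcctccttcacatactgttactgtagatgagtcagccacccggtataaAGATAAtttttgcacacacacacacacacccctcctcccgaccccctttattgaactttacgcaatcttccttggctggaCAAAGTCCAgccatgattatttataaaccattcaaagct

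The HNF4-type letters began 19 bases before the start of Alpi, 182 before that of Apoa4 and 39 before that of Slc3a1. In Lct, GATA-type letters began 101 and 90 bases before the start, 1 match on each strand. Of 18193 genes, 14452 had a promoter in the RefSeq table. A gene was counted where any of its promoters held the letters. The HNF4-type letters were present for 13 of the 58 genes with a promoter (22.4%) among called risers of the absorptive lists (lipid, brush border, transporters). They were present for 18.8% of 117 genes that rose at least 16-fold and for 6.99% of 286 genes that fell at least 4-fold. Of the 14452 tested genes with a promoter 5.89% had them. Counted by promoter and not by gene, 5.49% of all 32851 promoters in the table held them. For the GATA-type letters the shares were 13.8%, 16.2%, 5.94%, 8.79% and 9.99% in the same order. These sets were picked by their change in these samples, and a match of letters is a description of the window, with no measurement of binding.

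Brush border and digestive genes rose in full, 23 of 23 measured members, with a median of 3.24. Of the disaccharidases, Lct measured 8.93 and 5.38 at E14.5 and 14.13, 14.38 and 14.41 at E16.5, a rise of 7.15 ± 1.09 (adjusted p = 4.65e-05). It was 5.37 without replicate 3 of E14.5 and 8.93 without sample 1, and was called both times. Mgam, maltase-glucoamylase, rose by 3.24, and trehalase, Treh, by 0.82. All 8 peptidases rose. Mep1b, the beta subunit of meprin, rose by 7.22 ± 0.57, from 6.19 and 5.38 to 12.31, 13.17 and 13.54. Mme, the membrane peptidase neprilysin, rose by 6.49 ± 0.57, and Naaladl1, a peptidase of the NAALADase family, by 4.75 ± 0.19, from 6.88 and 6.51 to 11.39, 11.42 and 11.52. Alpi rose by 5.13 ± 0.92, from 10.62 and 7.60 to 14.02, 14.30 and 14.39. The 10 genes of microvillus structure also all rose, with a median of 2.48. They included Vil1, the actin bundler villin (2.16 ± 0.33), Espn, espin (3.98 ± 0.36), and the cadherins that link neighbouring microvilli, Cdhr2 (4.91 ± 0.59) and Cdhr5 (4.47 ± 0.53).

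Of 29 nutrient and ion transporters, 26 rose and none fell, with a median of 3.81. All 29 had non-overlapping samples between the ages, which held for 75.7% of all genes. All 3 sugar transporters rose. Slc5a1, the sodium-glucose cotransporter of the brush border, went from 8.64 and 7.36 to 12.37, 12.90 and 12.87, a rise of 4.71 ± 0.52. Slc2a2, the basolateral glucose exit carrier, rose by 5.35 ± 0.46, from 7.72 and 6.85 to 12.12, 12.97 and 12.81. All 8 peptide and amino acid carriers rose as well. The peptide transporter gene Slc15a1 was near the floor of the array at E14.5, with 4.33 and 4.25, and reached 8.29, 9.58 and 9.26 at E16.5, a rise of 4.75 ± 0.32 in the deposited values, which gives no exact fold change from that floor. Slc6a19, a carrier of neutral amino acids, rose by 5.45 ± 0.46 and Slc3a1 by 5.78 ± 0.54.

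Among ion and metal carriers, Slc26a3, the chloride-bicarbonate exchanger, rose by 5.84 ± 0.86, Slc34a2, a phosphate transporter, by 5.55 ± 0.54, and Slc9a3, the sodium-proton exchanger, by 4.93 ± 0.34. For Slc26a3 and Slc9a3 the probe sets of the gene ranged from 0.69 to 5.84 and from 0.36 to 4.93. The iron importer gene Slc11a2 rose by 4.08 ± 0.28, the zinc importer gene Slc39a4 by 4.45 ± 0.33 and the iron exporter gene Slc40a1 by 1.12. Cubn, the receptor for vitamin B12 bound to intrinsic factor, rose by 6.05 ± 0.79, and its partner Amn by 4.22 ± 0.79. The 3 transporters that were not called were Trpv6 (0.22), a calcium channel, Cftr (0.64), a chloride channel, and Slc10a2 (0.23), the bile salt importer of the ileum.

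General epithelial genes moved little beside these. Epcam, a surface protein of all gut epithelium, measured 13.48 and 13.29 at E14.5 and 13.75, 13.49 and 13.41 at E16.5, with a difference of 0.17 ± 0.25 (adjusted p = 0.577). Cdh1, E-cadherin, differed by 0.31 ± 0.14 (adjusted p = 0.0698). The median of 17 general epithelial genes was 0.25, with 7 called higher (41.2%, against 31.3% of all genes) and 1 lower (5.88%, against 30.1%). The 1 that fell was Esrp1, an epithelial splicing regulator (-0.89 ± 0.18). The largest rise among them was that of Krt20, a keratin of mature villus cells (2.74 ± 0.30). The mean level of this list was 11.40 and 11.21 at E14.5 and 11.83, 11.67 and 11.69 at E16.5.

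Metabolic genes of the enterocyte rose too. All 17 measured genes of fatty acid oxidation rose, with a median of 1.42, in mitochondria (11 of 11) and peroxisomes (6 of 6). Ehhadh, the peroxisomal bifunctional enzyme, rose by 4.18 ± 0.37, from 7.38 and 6.80 to 10.74, 11.68 and 11.40, and Pdk4, a kinase that spares glucose from oxidation, by 2.64 ± 0.13. Of 11 genes of the urea cycle and arginine synthesis, 8 rose. Otc, ornithine transcarbamylase, rose by 4.25 ± 0.85, from 9.46 and 6.93 to 12.30, 12.70 and 12.33, and Nags, which makes the activator of the first urea cycle enzyme, by 3.90 ± 0.55. Cps1, that first enzyme, had a difference of 1.5 that was not called (adjusted p = 0.112), with 12.98 and 11.68 at E14.5 and 13.86, 13.85 and 13.77 at E16.5. Arg1 and Arg2, the arginases, were not called either (-0.34 and 0.48).

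Xenobiotic and retinoid genes counted 25 higher (83.3%, against 31.3% of all genes) and 1 lower (3.33%, against 30.1%) of 30, with a median of 1.76. Ugt2b5, a glucuronosyltransferase, rose by 6.01 ± 0.87, Sult1b1, a sulfotransferase, by 5.07 ± 0.58, and Abcc2, a conjugate efflux pump, by 5.36 ± 0.57. Among retinoid genes, Rbp2, the retinol binding protein of enterocytes, rose by 6.47 ± 0.81, from 8.11 and 6.36 to 13.51, 13.66 and 13.95. Lrat, which esterifies retinol for storage, rose by 4.74 ± 0.55. Cyp26b1, which degrades retinoic acid, was the 1 gene of the list that fell (-0.71). Of 15 mucosal defence genes, 12 rose, among them Lgals3 (4.41 ± 0.40), a galectin, and Pigr (3.95 ± 0.28), the carrier of secretory immunoglobulin. Cholesterol synthesis was less uniform, with 9 of 17 genes called higher (52.9%, against 31.3% of all genes) and 1 lower (5.88%, against 30.1%), and a median of 0.53. Insig1, a sterol-sensing regulator, rose by 1.59 ± 0.35 and Dhcr7, the last reductase of the pathway, by 1.31 ± 0.18, whereas Sqle, squalene epoxidase, fell by 0.45.

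**Figure D2:**
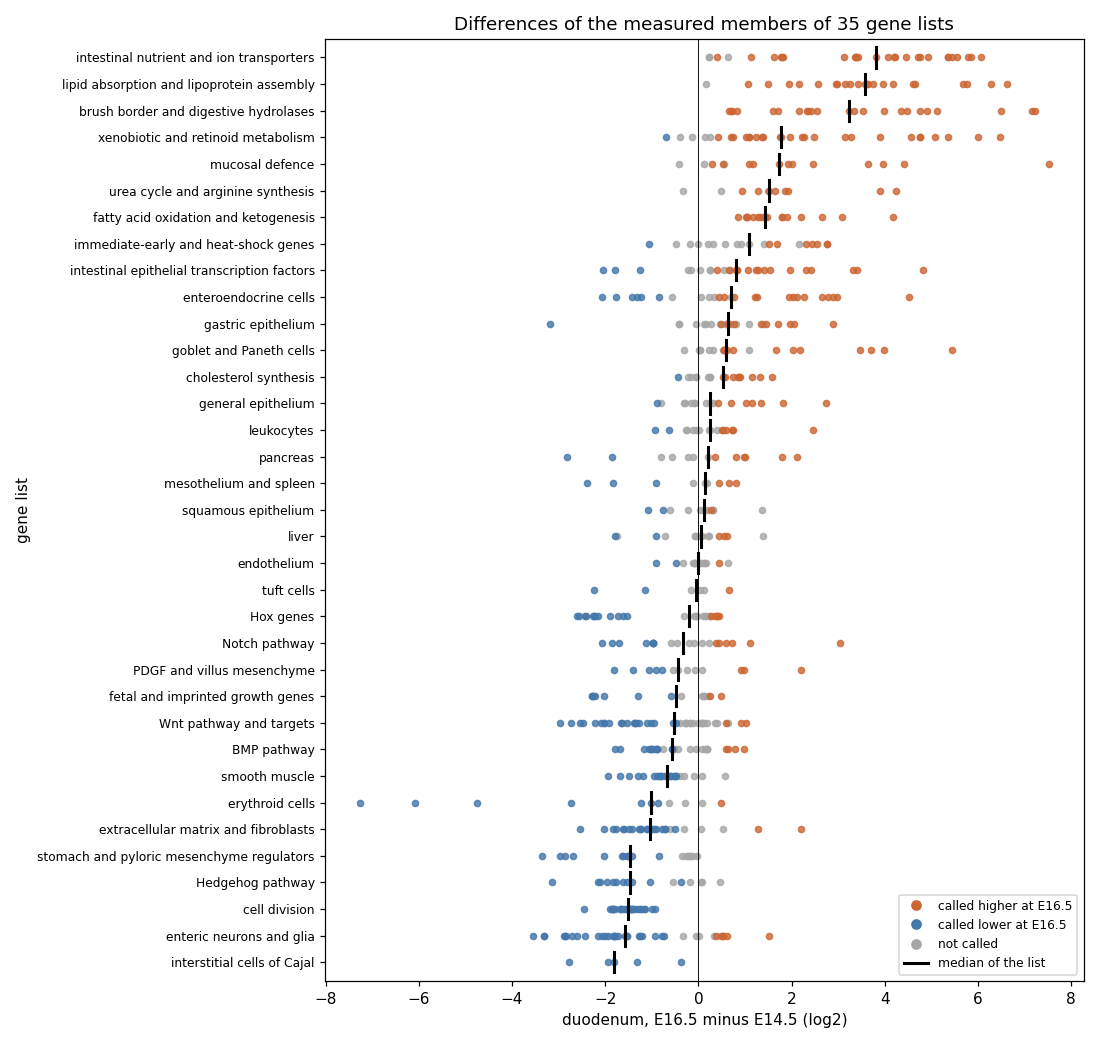
Difference E16.5 minus E14.5 in duodenum (x axis, log2) of the measured members of 35 gene lists (y axis), ordered by median; orange points were called higher, blue points lower and grey points not called, and black bars are list medians. Absorptive lists lie to the right with medians from 3.24 to 3.81, and neuronal, Hedgehog and cell division lists to the left with medians from -1.58 to -1.47.

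Of 26 intestinal epithelial transcription factors, 16 rose (61.5%, against 31.3% of all genes) and 3 fell (11.5%, against 30.1%). Creb3l3, a membrane-bound factor of lipid metabolism, had the largest rise, 4.82 ± 0.40, from 7.77 and 7.03 to 11.92, 12.45 and 12.30. Nr1h4, the bile acid receptor FXR, rose by 3.41 ± 0.38, Ppara, the fatty acid receptor, by 2.40 ± 0.36 and Cdx1, the second caudal factor of the intestine, by 3.32 ± 0.62, from 7.73 and 6.23 to 10.08, 10.51 and 10.31. Others rose by about 1 log2 unit. Hnf4a, a nuclear receptor of enterocytes, rose by 1.06 ± 0.18, from 11.77 and 11.30 to 12.50, 12.64 and 12.63, Gata6 by 1.23 ± 0.12, and Cdx2 by 0.82 ± 0.27 (adjusted p = 0.0171). The call of Cdx2 was lost without sample 1 of E14.5 (0.59, adjusted p = 0.17). The 3 that fell were Foxa1, a forkhead factor of early endoderm, from 11.96 and 12.18 to 10.23, 9.90 and 9.93 (-2.05 ± 0.27), its relative Foxa2 (-1.80 ± 0.33), and Sox9 (-1.26 ± 0.24), a factor of progenitors. Prdm1, the repressor that delays the adult intestinal program, was not called (0.68 ± 0.40, adjusted p = 0.147).

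The gastric factor Sox2 fell. It measured 8.86 and 8.98 at E14.5 and 5.74, 5.48 and 6.01 at E16.5, a difference of -3.18 ± 0.45 (adjusted p = 2.18e-05). Of the 23 measured gastric epithelial genes, 9 were called higher, a share near the background of 31.3%, and Sox2 alone was called lower. The other of the 2 transcription factors of this list, Nkx6-3, rose by 1.97 (adjusted p = 4.04e-05). The largest rise of the list was that of the ghrelin gene Ghrl (2.89). Replicate 3 of E16.5 was highest in several genes of the list: Gkn1, a gastrokine of the stomach surface, stood at 6.52, 6.86, 6.83 and 6.36 in the other samples and at 8.67 there. The mean level of the gastric list was 7.22 and 6.99 at E14.5 and 7.47, 7.62 and 8.23 at E16.5. The part of gastric cells in that replicate was not tested.

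Of 8 goblet cell genes of mucus 7 rose, with a median of 2.10, and of 3 other goblet cell genes 1 rose, Spink4 (3.70 ± 0.83), a protease inhibitor. Muc2, the gel-forming mucin, went from 7.20 and 5.53 to 8.95, 10.42 and 10.10, a rise of 3.46 ± 0.48. Clca1, a secreted protease of goblet cells, rose by 5.44 ± 0.80, Zg16, a lectin of mucus, by 3.98 ± 0.40, and Tff3, a trefoil peptide, by 2.02 ± 0.54. The 2 probe sets of Clca1 differed, with 0.79 and 5.44, and the call of Tff3 was lost without replicate 3 of E14.5 (1.37, adjusted p = 0.0952). Of the 4 transcription factors, Atoh1, Spdef, Gfi1 and Creb3l1, none was called, with differences from -0.31 to 0.52. Mmp7, Ang4, Itln1 and Pla2g2a, listed as Paneth cell genes, were called with small rises of 0.54 to 0.74. The presence of Paneth cells was not tested. Of the 20 measured goblet and Paneth cell genes, 12 were called higher (60%, against 31.3% of all genes). With genes of a mean below 7 left out, 12 genes remained and 7 were called higher. Some of the called rises were therefore those of dim genes, and the part of the shift of dim values in them was not tested.

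Of 10 enteroendocrine hormone genes, 7 were higher (background 31.3%) and 1 lower (background 30.1%). Gip, the glucose-dependent insulinotropic peptide, measured 6.22 and 5.44 at E14.5 and 9.91, 10.71 and 10.45 at E16.5, a rise of 4.53 ± 0.26. Cck, cholecystokinin, rose by 2.96 ± 0.39, Ghrl, ghrelin, by 2.89 ± 0.50, Sst, somatostatin, by 2.77 ± 0.30 and Sct, secretin, by 2.27 ± 0.54. Gcg, proglucagon, moved the other way, from 7.25 and 7.59 to 5.19, 5.39 and 5.49 (-2.06 ± 0.36). Of 7 endocrine transcription factors, 2 rose and 3 fell, where 31.3% of all genes rose and 30.1% fell. Neurog3, which commits cells to the endocrine fate, fell by 1.23 ± 0.30, and Insm1, a zinc finger factor of early endocrine cells, by 1.76 ± 0.21. Neurod1, which acts after Neurog3, rose by 1.22 ± 0.27 and Pax6 by 0.45. Insm1 and Isl1 (-1.43 ± 0.37) are also neuronal genes, and the neuronal list fell in the same samples. Tph1, the serotonin-making enzyme of enterochromaffin cells, rose by 2.12 ± 0.32. Tuft cell genes gave no common direction: of 6, Pou2f3, the tuft lineage factor, rose (0.66 ± 0.17), and Dclk1 and Trpm5 fell (-2.24 and -1.15), of which Dclk1 is also expressed in neurons.

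Hedgehog signalling genes fell. Of 16 measured genes, none rose and 11 fell (background 30.1%), with a median of -1.47. The ligand Shh measured 12.81 and 12.77 at E14.5 and 10.13, 9.24 and 9.55 at E16.5, a difference of -3.15 ± 0.22 (adjusted p = 4.42e-08). Ihh, the other epithelial ligand, did not pass the test, with a mean of 9.82 at E14.5, values of 10.44, 10.19 and 10.22 at E16.5 and a difference of 0.46 ± 0.20 (adjusted p = 0.0577). The difference between the 2 epithelial ligands was not tested. Of the receptor genes, Ptch1, the receptor and a target of the pathway, fell by 1.03 ± 0.19, Smo, the signal transducer, by 1.84 ± 0.19, and the coreceptor Gas1 by 2.15 ± 0.19. All 4 effectors fell. Gli1, a direct target, went from 8.52 and 7.99 to 7.03, 6.32 and 6.08 (-1.78 ± 0.30), Gli2 fell by 2.12 ± 0.26 and Gli3 by 1.95 ± 0.20. Foxf1 and Foxf2, forkhead targets in the mesenchyme, fell by 1.62 ± 0.22 and 1.53, and Foxl1, another such target, was not called (0.08).

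**Figure D3:**
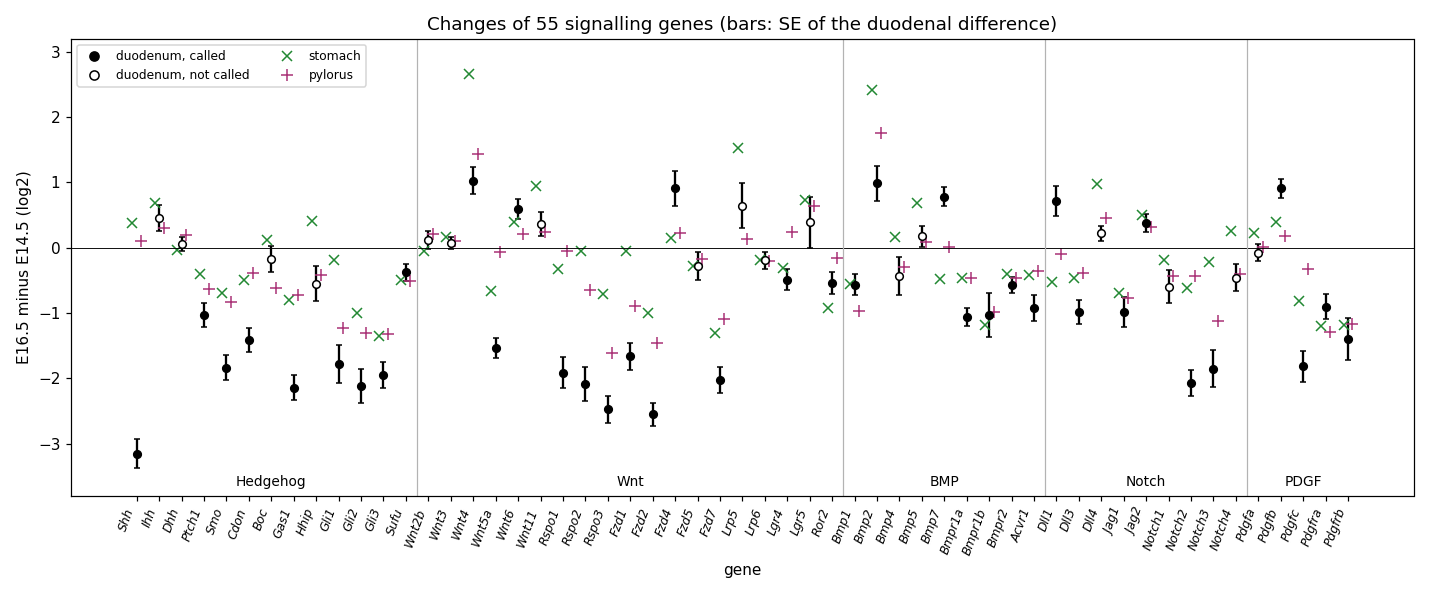
Change from E14.5 to E16.5 (y axis, log2) of the 55 measured ligands, agonists and receptors of 5 signalling pathways, with the Hedgehog effectors, in the order of the pathways (x axis); circles are duodenum with SE bars, filled where called, and crosses and plus signs are stomach and pylorus. Shh fell by 3.15 in duodenum, against differences of 0.38 in stomach and 0.11 in pylorus.

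Among 40 Wnt pathway genes, 3 rose (7.5%, against 31.3% of all genes) and 21 fell (52.5%, against 30.1%). The agonists fell together: Rspo1 by 1.91, Rspo2 by 2.09 ± 0.26 and Rspo3, a ligand that amplifies Wnt signals, by 2.48 ± 0.21, from 10.27 and 10.21 to 7.97, 7.59 and 7.73. Of the ligands, Wnt5a, which drives gut elongation, fell from 8.16 and 7.93 to 6.63, 6.42 and 6.48 (-1.54 ± 0.15), and Wnt4 and Wnt6 rose by 1.03 ± 0.21 and 0.60. Other probe sets of Wnt5a, Rspo2 and Rspo3 gave values up to 0.14, 0.36 and -0.03. Of 7 inhibitors, 5 fell and none rose. Sfrp2 fell by 2.98 ± 0.27, Dkk2 by 2.73 ± 0.22 and Sfrp1 by 2.03 ± 0.14, from 12.66 and 12.58 to 10.86, 10.38 and 10.52. Of 10 receptor genes 5 fell, led by Fzd2 (-2.55 ± 0.18), and Fzd4 alone rose (0.91 ± 0.27), by 0.66 and not called without sample 1 of E14.5 (adjusted p = 0.117). Of 11 targets, 5 fell, among them Myc (-1.63 ± 0.19). Axin2, a common readout of the pathway, was not called (-0.39 ± 0.26, adjusted p = 0.195) and overlapped between the ages. Lgr5, the receptor that marks adult crypt stem cells, was not called either (0.39 ± 0.39).

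Of 27 BMP genes, 4 were higher (14.8%, against 31.3% of all genes) and 12 lower (44.4%, against 30.1%), with a median of -0.57. Among ligands, Bmp2 rose from 9.77 and 9.35 to 10.76, 10.43 and 10.45 (0.99 ± 0.27), Bmp7 rose by 0.78 ± 0.15, and Bmp4, the ligand of villus clusters, was not called (-0.43 ± 0.29, adjusted p = 0.207). The call of Bmp2 was lost without replicate 3 of E14.5 (0.78, adjusted p = 0.0757). All 4 receptors fell, by 0.57 to 1.06, with Bmpr1a at -1.06 ± 0.14. Bmpr1b was at -1.03, and was not called without sample 1 (-1.06, adjusted p = 0.0613) or replicate 3 of E14.5 (-0.99, adjusted p = 0.0757). Acvr1, at -0.93 ± 0.20, had another probe set at 0.54. Of the targets, Id4 fell by 1.78 ± 0.15, whereas Id1 was not called (-0.53 ± 0.25, adjusted p = 0.0743).

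Of 20 Notch genes, 6 were higher and 8 lower, shares near the background of 31.3% and 30.1%. The receptors Notch2 and Notch3 fell by 2.07 ± 0.20 and 1.85 ± 0.29, and the target Hey2 by 1.69 ± 0.20. Dll1, a ligand of secretory precursors, rose by 0.72 ± 0.23 (0.47 and not called without replicate 3 of E14.5, adjusted p = 0.168, and 0.56 without replicate 1 of E16.5, adjusted p = 0.0503), and Jag1, a ligand of the mesenchyme and vessels, fell by 0.98 ± 0.23. Olfm4, a Notch-dependent gene of progenitors, rose by 3.04 ± 0.37, from 7.98 and 6.97 to 10.32, 10.85 and 10.39. The count of higher Notch genes was 3 without replicate 3 of E14.5 and 4 without replicate 1 of E16.5. Of the PDGF genes, Pdgfa, the epithelial ligand of villus clusters, was not called (-0.08 ± 0.13), with a sign that turned to 0.065 after quantile normalization and 0.0017 after median centring. Its receptor Pdgfra fell from 11.28 and 10.97 to 10.43, 10.16 and 10.08 (-0.90 ± 0.19), Pdgfrb fell by 1.40, Pdgfc by 1.81 ± 0.24, and the vascular ligand Pdgfb rose by 0.91 ± 0.15.

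Genes of the wall were lower at E16.5. Of 24 smooth muscle genes, none rose and 18 fell (75%, against 30.1% of all genes), with a median of -0.66. Acta2, smooth muscle actin, measured 14.27 and 14.29 at E14.5 and 13.61, 13.60 and 13.84 at E16.5 (-0.60 ± 0.13), and Myh11, the smooth muscle myosin, fell by 1.19 ± 0.31. Myocd, the coactivator that drives the muscle program, fell by 1.95 ± 0.27. Des, desmin, was not called (0.56 ± 0.32), with 9.90 and 9.71 at E14.5 and 10.47, 10.15 and 10.48 at E16.5. The count of falling muscle genes was 12 without sample 1 of E14.5. Synpo2, at -1.49 ± 0.21, had another probe set at 0.74. All 5 measured genes of interstitial cells of Cajal, the pacemaker cells, fell, led by the receptor gene Kit (10.44 and 10.78 against 8.23, 7.80 and 7.47, -2.78 ± 0.27) and the chloride channel gene Ano1 (-1.81 ± 0.31). The fall of Kitl, the ligand of Kit, was -0.37 by its brightest probe set, not called without sample 1 of E14.5 (-0.27, adjusted p = 0.189) or replicate 3 of E16.5 (-0.33, adjusted p = 0.061), and 0.066 by the mean of its probe sets.

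Of 26 matrix and fibroblast genes, 20 fell (76.9%, against 30.1% of all genes) and 2 rose (7.69%, against 31.3%), with a median of -1.04. Col1a1, a chain of type I collagen, fell from 12.36 and 12.21 to 11.06, 10.86 and 11.10 (-1.28 ± 0.27), Col5a2 by 2.03 ± 0.21, Fn1, fibronectin, by 1.84 ± 0.19 and Vcan, the proteoglycan versican, by 2.54 ± 0.22. The probe sets of Vcan ranged from -2.67 to 0.31. The 2 that rose were Dpt, dermatopontin (2.20 ± 0.30), and Tnc, tenascin C (1.28 ± 0.34). Mesenchymal regulators of the foregut fell as well, 11 of 18 with none higher, and a median of -1.47. Barx1 fell by 1.5 ± 0.26, Osr1 by 3.36 ± 0.38, Hand2 by 2.85 ± 0.25 and Meis1 by 2.68 ± 0.24. The sphincter genes Nkx2-5 (-0.12) and Gata3 (-0.19) were not called.

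Enteric nervous system genes fell, 27 of 37 (73.0%, against 30.1% of all genes), with 6 higher (16.2%, against 31.3%) and a median of -1.58. All 12 pan-neuronal genes fell. Tubb3, neuronal tubulin, measured 9.77 and 10.17 at E14.5 and 7.52, 7.07 and 7.16 at E16.5 (-2.72 ± 0.17, adjusted p = 2.29e-08). Nefm and Nefl, neurofilament chains, fell by 3.55 ± 0.23 and 3.31 ± 0.19, and Gap43, of growing axons, by 2.85 ± 0.23. All 6 progenitor genes fell as well, among them Phox2a (-3.32 ± 0.25), Gfra1 (-2.89 ± 0.27) and Ret, the receptor for GDNF (-1.81 ± 0.24). The ligand Gdnf, which is made by the mesenchyme, fell by 2.44 ± 0.26. Of 11 transmitter genes, 5 fell and 2 rose, where 30.1% of all genes fell and 31.3% rose. Vip, vasoactive intestinal peptide, fell by 0.74 ± 0.18, while Nos1, of inhibitory neurons, was not called (-0.05 ± 0.14, 0.024 after median centring and 0.17 after quantile normalization). Glial genes were mixed. Sox10, of neural crest progenitors and glia, fell from 9.49 and 9.49 to 8.06, 7.84 and 7.96 (-1.54 ± 0.19), and S100b, of maturing glia, rose from 6.72 and 6.56 to 7.77, 8.38 and 8.33 (1.52 ± 0.18).

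**Figure D4:**
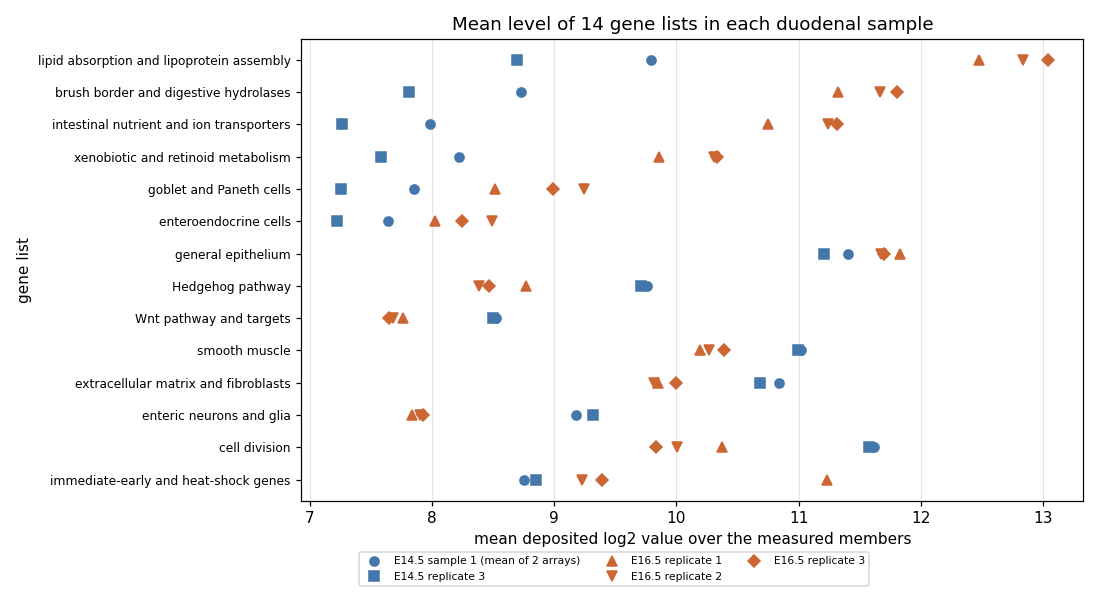
Mean deposited log2 value over the measured members (x axis) of 14 gene lists (y axis) in each duodenal sample; blue symbols are E14.5 and orange symbols E16.5. For lipid absorption the E14.5 samples lay at 8.70 and 9.79 and those of E16.5 at 12.48 to 13.04, and for immediate-early and heat-shock genes replicate 1 of E16.5 stood alone at 11.23.

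Cell division genes fell in full, 29 of 29, with a median of -1.51. The count was 29 as well with any 1 of the 5 duodenal samples left out. Mki67, present in all cycling cells, measured 13.12 and 12.93 at E14.5 and 12.40, 11.62 and 11.63 at E16.5 (-1.14 ± 0.19). Cdk1, the mitotic kinase, fell by 1.36 ± 0.11, Kif20a, a kinesin of cytokinesis, by 2.45 ± 0.19 and Mcm4, of the replicative helicase, by 1.85 ± 0.18. Mean levels of the list were 11.61 and 11.58 at E14.5 and 10.37, 10.01 and 9.83 at E16.5. Replicate 1, the sample with high immediate-early genes, was the highest of E16.5. Of 14 fetal and imprinted growth genes, 7 fell (50%, against 30.1% of all genes) and 2 rose (14.3%, against 31.3%). Those that fell included Hmga2, a chromatin protein of embryonic cells (-2.22 ± 0.23), Dlk1 (-2.29 ± 0.22) and Peg3 (-2.28 ± 0.18). Igf2, the fetal growth factor, rose slightly, from 14.45 and 14.31 to 14.64, 14.59 and 14.64 (0.25 ± 0.09, adjusted p = 0.0263), and was not called without replicate 3 of E14.5 (0.18, adjusted p = 0.207) or of E16.5 (0.24, adjusted p = 0.0547). Igf2bp1 was not called by its brightest probe set (0.20) and fell by the mean of its probe sets (-0.77, adjusted p = 0.00027). Lin28b was near the floor at both ages, at 3.84 and 3.92 against 3.91, 3.94 and 4.01.

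Of 26 Hox genes, which set position along the body axis, 12 fell (46.2%, against 30.1% of all genes) and 5 rose (19.2%, against 31.3%). Those that fell had numbers up to 6: Hoxb3 fell by 2.57 ± 0.20, from 10.88 and 11.06 to 8.80, 8.34 and 8.06, and Hoxc5 by 2.60 ± 0.41. Those that rose were Hoxa7, Hoxa9, Hoxb9, Hoxc9 and Hoxd9, by 0.27 to 0.45. With genes of a mean below 7 left out, 14 Hox genes remained, of which 2 were called higher and 12 lower. Most of these small rises were therefore those of dim genes. The count of rising Hox genes was 2 without either sample of E14.5 and 3 without replicate 2 or 3 of E16.5.

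Markers of other tissues that the dissection could hold gave these values. Over all genes 31.3% were called higher and 30.1% lower. Of 13 pancreatic genes, 6 were called higher and 2 lower. Cpa1, an acinar protease gene, measured 11.25 and 11.18 at E14.5 and 7.05, 8.42 and 9.73 at E16.5 (-2.82 ± 0.78), and Cela1, an elastase gene, rose from 9.18 and 8.96 to 10.03, 10.94 and 11.65 (1.80 ± 0.38). For both of these, replicate 3 was the highest of E16.5. The pancreatic count of risers was 1 without sample 1 of E14.5, 2 without replicate 3 of E14.5 and 3 without replicate 2 or 3 of E16.5. The mean level of the list ranged from 7.98 to 8.01 at E14.5 and from 7.31 to 8.70 at E16.5. Of 15 liver genes 3 rose and 2 fell, and Alb, albumin, was not called (-1.75 ± 0.78, adjusted p = 0.0639). Of 12 squamous genes 1 rose and 2 fell, with mean levels of 6.15 to 6.35. Of 9 mesothelial and splenic genes 3 rose and 3 fell, led by the mesothelial factor Wt1 (-2.40 ± 0.30). Their part in the results above was not tested.

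Of 11 erythroid genes 7 fell and 1 rose, and the count of falls was 4 without replicate 3 of E14.5 or of E16.5. Besides the globins, Slc4a1, the red cell anion exchanger, fell by 2.73 ± 0.64. Among 16 leukocyte genes, 6 rose (background 31.3%) and 2 fell. Csf1r, the macrophage growth factor receptor, rose from 10.64 and 10.44 to 12.39, 13.18 and 13.42 (2.45 ± 0.26), the largest change of that list, and its 3 probe sets gave 2.14 to 2.66. Of other macrophage genes, C1qa rose by 0.50 (0.46 and not called without replicate 3 of E14.5, adjusted p = 0.0683) and Adgre1 by 0.52, while Mrc1, the mannose receptor, fell by 0.94 ± 0.21 from 8.40 and 8.26 to 7.23, 7.36 and 7.60. The other leukocyte gene that fell was Coro1a, an actin-binding coronin (-0.63 ± 0.19), at -0.61 and not called without replicate 3 of E14.5 (adjusted p = 0.0517). Of 16 endothelial genes, 1 rose and 2 fell, with a median of -0.01. Of 19 immediate-early and heat-shock genes 7 rose (36.8%, near the background of 31.3%) and 1 fell (5.26%, against 30.1%). The transcription factor Fos measured 7.99 and 8.99 at E14.5 and 12.90, 9.93 and 10.30 at E16.5 (2.55 ± 0.88, adjusted p = 0.0207), and its difference was 1.62 without replicate 1 of E16.5 (adjusted p = 0.0887) and 2.05 without sample 1 of E14.5 (adjusted p = 0.148). The count of risers was 2 without replicate 1 of E16.5, 2 without sample 1 and 3 without replicate 3 of E14.5.

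The change in duodenum was set against that of its neighbours, with the difference of the changes tested in the same model. Both comparisons use the same duodenal samples, so their values stand side by side only. Against stomach, the change in duodenum was more positive for 2164 genes (11.9%) and more negative for 2825 (15.5%). Against pylorus, it was more positive for 1274 genes (7.0%) and more negative for 2282 (12.5%). Without replicate 3 of E14.5 the sums fell from 4989 to 3260 against stomach and from 3556 to 1671 against pylorus.

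Absorptive lists rose more in duodenum than in stomach. Over all genes, the change was more positive for 11.9% against stomach and 7.0% against pylorus, and more negative for 15.5% and 12.5%. The difference of changes was called positive for 16 of 23 lipid genes, 13 of 23 brush border genes and 19 of 29 transporters, and negative for 0, 0 and 2. Against pylorus the positive counts were 10, 6 and 11, and without replicate 3 of E14.5 they were 2, 4 and 5. For transporters the count was also 7 without replicate 2 or 3 of E16.5. Mme, for example, rose by 6.49 in duodenum, with -0.23 in stomach (difference of changes 6.72 ± 0.76, adjusted p = 2.17e-05) and 2.86 in pylorus (3.64 ± 0.76, adjusted p = 0.00473). Naaladl1 rose by 4.75, with 0.35 in stomach and 0.84 in pylorus, and its difference of changes against pylorus was 3.91 ± 0.26. For Apoa4 and Fabp1 no such difference was called. Apoa4 changed by 5.67 in duodenum, 4.99 in stomach and 4.81 in pylorus, with differences of changes of 0.68 ± 1.44 (adjusted p = 0.782) and 0.85 ± 1.44 (adjusted p = 0.732), errors too wide to show that the tissues acted alike. For Fabp1 the changes were 3.43 in duodenum and 5.34 in stomach. Since the duodenal values of both genes at E16.5 lay near the highest of the table, the size of their duodenal rise may be bounded by the array, which was not tested, and the order of the tissues cannot be read from these values.

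The change of Shh differed from that of both neighbours: it was -3.15 in duodenum, 0.38 in stomach (difference of changes -3.54 ± 0.29, adjusted p = 1.63e-06) and 0.11 in pylorus (-3.26 ± 0.29, adjusted p = 6.4e-05). For Sox2 and Foxa1 the change was also more negative in duodenum, with differences of changes against pylorus of -3.34 ± 0.60 and -2.44 ± 0.37. Over all genes, the change was more negative in duodenum for 15.5% against stomach and for 12.5% against pylorus. Cell division genes fell further in duodenum than in stomach for 23 of 29 members and than in pylorus for 19. Without replicate 3 of E14.5 these counts were 18 and 11, and without sample 1 they were 15 and 11. Neuronal and glial genes fell further in duodenum for 20 of 37 against stomach and 23 of 37 against pylorus. For smooth muscle the counts were 18 of 24 and 5 of 24, and for matrix genes 22 of 26 and 11 of 26. Against pylorus, both fell without sample 1 of E14.5, to 1 and 5, without replicate 3, to 1 and 6, and without replicate 2 of E16.5, to 3 and 7. For the embryonic globin gene Hba-x no difference of changes was called. It changed by -6.09, -5.01 and -4.98 in duodenum, stomach and pylorus (adjusted p = 0.123 against stomach and 0.13 against pylorus). Csf1r rose in duodenum by 2.45 against 0.18 in stomach and 0.38 in pylorus, with differences of changes of 2.27 ± 0.34 and 2.07 ± 0.34 (adjusted p = 0.00022 and 0.00132).

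**Figure D5:**
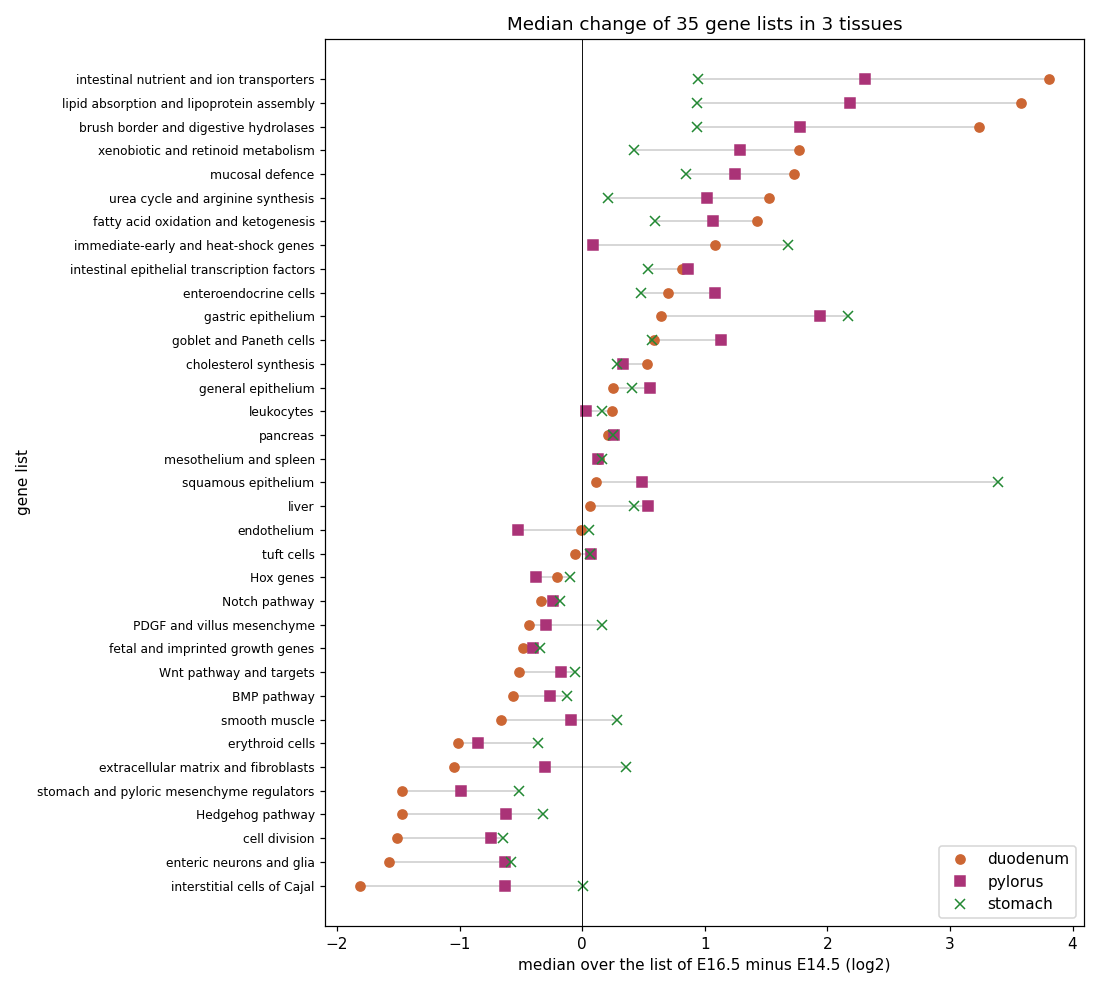
Median change from E14.5 to E16.5 (x axis, log2) of 35 gene lists (y axis) in duodenum (circles), pylorus (squares) and stomach (crosses). For intestinal transporters the medians were 3.81, 2.31 and 0.94, for cell division -1.51, -0.74 and -0.65, and for squamous epithelium 0.11, 0.48 and 3.39.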

How the data were processed

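The deposited values are log2 expression values, which the authors made with GCOS and RMA, as stated per the submitters' processing notes. Versions were not given in the sources used here. They were used without further scaling (range 3.55 to 15.22, array medians 6.75 to 6.92). Of 45101 probe sets, 34945 carried 1 gene symbol, 932 several and 9160 none, and 64 were Affymetrix controls. The probe set with the highest mean stood for each of 18193 genes, 9010 of which had more than 1.

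limma 3.58.1 in R 4.3.3 fitted a mean for each of the 6 groups to 17 samples (lmFit, eBayes, 11 residual and 3.95 prior degrees of freedom), and calls used an adjusted p below 0.05. The fit was tested on simulated data. Python 3.11.15 with pandas 2.3.3, numpy 2.4.6 and matplotlib 3.10.9 made tables and figures. The number of arrays limits the precision. RefSeq promoters were matched by gene symbol.

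A set of 325 genes, called the named genes below, was picked by rule. It held the 12 largest rises and 12 largest falls that were called without overlap. It held the 6 largest differences of changes in each direction and comparison. All of these are given in the text. The set also held up to 8 called members of each of 35 lists (the 2 largest differences where fewer than 2 were called). Further members were the 57 measured genes of 60 anchor genes, and the called ligands, receptors and antagonists of 5 pathways. The text does not give every gene of these latter groups, and left out for example Sfrp5 (-2.22), Ptf1a (-1.85) and Tac1 (2.65). Symbols that are only clone or predicted names were passed over. Other list members are named as examples, and these were chosen after their values were seen, as were the promoters. The members and lists were chosen with earlier results of these data known. Of 728 list genes, 674 were measured and 54 were not analysed here.

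Alternatives were quantile normalization, median centring, genes with a mean below 7 left out, the mean of probe sets, 18 separate arrays, replicate 1 or 2 alone, an intensity trend with robust prior, only duodenal samples, a replicate block, and each sample left out. Tissue was pooled at random and the ages came from different embryos, so the replicate numbers were not taken to pair the samples. Deviations of duodenal samples with the same replicate number correlated at -0.09 and -0.13 between the ages. These values cannot decide on pairing, because the 2 samples of E14.5 deviate from their mean as mirror images. Pairing of pools with the same number from different segments of 1 age was not checked.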

Additional observations from a re-analysis of the deposited data

Results flagged for a closer look

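The change from E14.5 to E16.5 differed between duodenum and stomach for 4989 genes, and between duodenum and pylorus for 3556, by limma's test of the difference of changes (adjusted p below 0.05).

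Against stomach, the largest positive differences were those of Mme (6.72), Leap2 (6.50), Meltf (6.26), Mep1b (6.17), Hyal5 (6.16) and Smcp (5.76), a gene known from sperm mitochondria that rose from 4.90 and 4.75 to 10.45, 11.52 and 11.65 in duodenum. The largest negative differences were those of Krt13 (-5.82), Atp4a (-5.80), Gkn1 (-5.75), Krtdap (-5.75), Gkn2 (-4.89) and Krt4 (-4.85). These are genes of the squamous or glandular stomach, and in duodenum their own values differed less, for example 0.11 for Krt13. Which regions of the stomach its samples held was not tested.

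Against pylorus, the largest positive differences were those of Meltf (4.27), Naaladl1 (3.91), Abcc2 (3.89), Abcb11 (3.67), Bst1 (3.67) and Mme (3.64). The largest negative ones were those of Sptssb (-4.81), Sult1c2 (-4.79), Gkn1 (-3.88), Gkn2 (-3.75), Plet1 (-3.53) and Sox2 (-3.34). Sox2 is a case in which the duodenal change itself was large (-3.18), with 0.16 in pylorus.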

How the results depend on the processing

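The number of genes called in duodenum was 11171, and 7966 to 12323 under the alternatives, with 10335 to 10960 when 1 duodenal sample of E16.5 was left out. The 7966 calls came from the run with dim genes left out, which tested 11408 genes in place of 18193. Differences of changes against stomach numbered 4989, and 3260 to 5674 with 1 sample left out; against pylorus they numbered 3556, and 1671 to 4383. The lowest counts of these differences of changes came without duodenal replicate 3 of E14.5, which left sample 1 alone at that age, assumed to vary like the other groups. With a replicate block, 11058 genes were called in duodenum, 4994 against stomach and 3863 against pylorus, although the numbers were not taken to pair the samples.

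Of 349 results for named genes, 286 kept direction and side of the threshold under every alternative run for them. Of 5314 values, 149 lost a call, 20 gained one and 17 changed sign, 1 of them of a called gene, Kitl (0.066 by the mean of probe sets). The mean of probe sets also turned Igf2bp1 to -0.77, Nos1 to 0.13 and Pdgfa to 0.087. Median centring turned Atp4a to 0.02, Nos1 to 0.024 and Pdgfa to 0.0017, and quantile normalization turned Nos1 to 0.17 and Pdgfa to 0.065. Krt4 turned to -0.0082 with the replicate block. With 1 sample left out, uncalled values changed sign and ranged from -0.093 to 1.06 in Gkn1, -0.01 to 0.23 in Krt13, -0.013 to 0.092 in Krt4, -0.21 to 0.10 in Nos1 and -0.16 to 0.025 in Pdgfa. The cause was not tested. Of 304 named genes that were called, 30 and 33 lost the call without sample 1 or replicate 3 of E14.5, and 11, 11 and 13 without replicates 1, 2 and 3 of E16.5, and none changed direction. The E14.5 samples lay apart in absorptive genes, so the size of those rises moved with the sample left out, as in Lct (5.37 to 8.93).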
